A study of Homo sapiens with 13 samples.

Results

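The regions described here are stretches of the genome where TCF7L2 peaks were lost after prednisolone while a LEF1 peak was still called. They come from CUT&RUN in Nalm6 cells, a human line established from B-lineage acute lymphoblastic leukaemia. In CUT&RUN an antibody directs a nuclease to the chromatin that its target occupies, and the released DNA is sequenced. The glucocorticoid drug prednisolone, at 5 µM for 24 h, was set against controls, for which the labels give no treatment in one field and a vehicle in the protocol. All cells, controls included, were grown in medium with charcoal-stripped serum, a serum depleted of steroids. Each combination of antibody (LEF1 or TCF7L2) and treatment had 3 replicates from independent experiments, all from this single line.

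TCF7L2 peaks from the 6 TCF7L2 lists were merged wherever they overlapped by at least 1 bp, which gave 1378081 regions. Of these, 2149 had a peak in all 3 control TCF7L2 lists, in none of the 3 prednisolone TCF7L2 lists, and overlapped a peak in each of the 6 LEF1 lists. They are called lost regions below. The natural comparison is with the 7557 retained regions, which met the same LEF1 condition and had a TCF7L2 peak in all 6 lists. Coordinates are on hg19, as named in the submitters' processing notes. No annotation or sequence of that build was used here, so no region is assigned to a gene, exon, intron or motif.

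LEF1 and TCF7L2 belong to the TCF/LEF family, whose HMG-box proteins bind closely related DNA sequences. Without a Wnt signal they recruit TLE corepressors. When Wnt signalling stabilises beta-catenin, it binds their amino terminus and turns target genes on. LEF1 is prominent in lymphoid progenitors and TCF7L2 is best known from epithelial Wnt signalling. Glucocorticoids act through the glucocorticoid receptor, a ligand-activated transcription factor that drives growth arrest and apoptosis in lymphoid leukaemia, and the series' title sets this pathway against canonical Wnt signalling.

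The main finding concerns LEF1. The rule demanded a LEF1 peak past the caller's limit in all 6 lists, so a LEF1 peak remained at every lost region, but the rule did not use how strong that peak was beyond the limit. The median rank of LEF1 at the lost regions was lower in each prednisolone library than in each control library, while single regions varied. Ranks were taken within the 65207 LEF1 regions that had a peak in all 6 LEF1 lists, by the −log10 p-value of the strongest peak, so that lists of unequal length stood on the same footing. The lost regions lay in 2103 of these common LEF1 regions, and 6 lost regions lay in none. Their median percentile was 75.4, 76.7 and 75.9 in the control libraries and 69.0, 68.8 and 69.3 in the prednisolone libraries. The control and prednisolone medians did not overlap. The 7273 LEF1 regions at retained TCF7L2 regions went the other way, with medians of 80.8, 81.3 and 81.1 in control and 84.1, 83.3 and 83.5 after prednisolone.

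**Figure D1:**
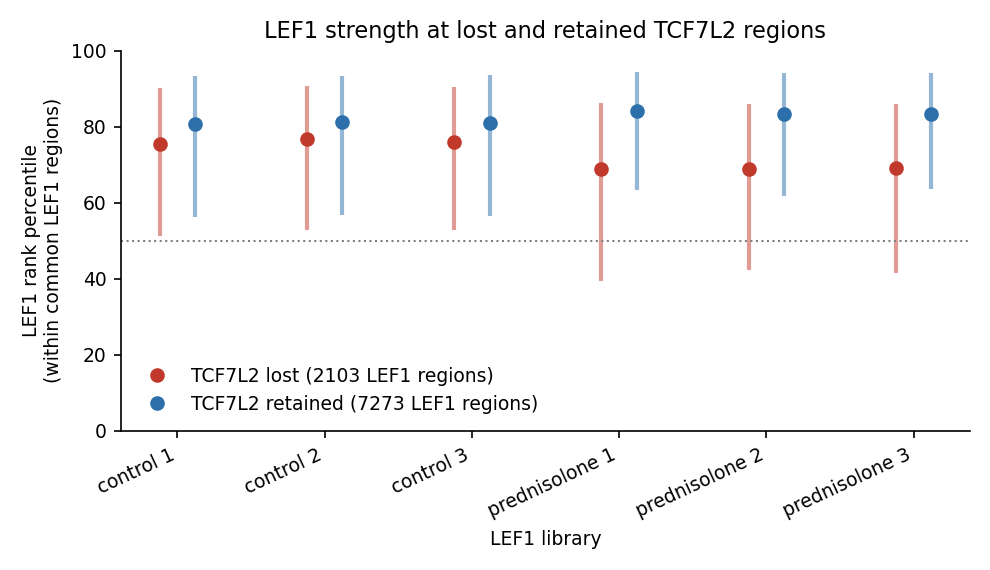
LEF1 rank percentile within the common LEF1 regions (y axis) in each of the 6 LEF1 libraries (x axis). Points are medians and bars run from the lower to the upper quartile, and the dotted line marks the middle of the ranking. The lost regions sit near 76 in the control libraries and near 69 in the prednisolone libraries, while the retained regions are higher throughout.

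The LEF1 folds over background, which are the authors' own values within each list, showed the same order at the lost regions. The median fold of the LEF1 peak was 4.70, 4.80 and 4.74 in control libraries 1 to 3. It was 4.14, 3.99 and 3.79 in prednisolone libraries 1 to 3. All prednisolone medians were thus below all control medians, but this order was not particular to the lost regions. Over all common LEF1 regions the median folds of each region's strongest peak were 3.92, 3.95 and 3.99 in control libraries and 3.88, 3.71 and 3.56 in prednisolone libraries. By the same measure the LEF1 regions at lost TCF7L2 regions had 4.89, 5.00 and 4.83, and then 4.27, 4.17 and 3.97. When each LEF1 list was restricted to its 20000 strongest peaks, 1108, 1172 and 1190 of the lost regions held such a peak in control cells, and 970, 942 and 913 did after prednisolone. These counts averaged 1157 ± 43.1 and 942 ± 28.5 (mean ± SD, n = 3 libraries each), a ratio of 0.814. At retained regions the means were 4670 ± 72.0 and 5027 ± 103, a ratio of 1.08. Among the 5000 strongest LEF1 peaks the contrast was wider, with 396 ± 16.4 lost regions in the control libraries and 258 ± 24.8 in the treated ones (n = 3 libraries each). No p-value is given for these summaries, because the regions were chosen with results of these data known.

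The LEF1 difference followed how many prednisolone libraries had kept the TCF7L2 peak. The ranks were turned into normal scores, on which 1 unit is 1 SD of the ranking, and the difference is prednisolone minus control. Its median was −0.228 at lost regions, −0.106 where 1 prednisolone list had a TCF7L2 peak, −0.0246 where 2 lists had one and 0.0754 at retained regions. Over all common LEF1 regions it was −0.0230. The order of these 4 classes was thus the order of TCF7L2 persistence. The spread within each class was wide, and 64.8% of the LEF1 regions at lost TCF7L2 regions had a negative difference, against 43.6% at retained regions.

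LEF1 regions were then counted whose 3 prednisolone ranks lay entirely below or entirely above their 3 control ranks. At lost regions 469 of 2103, or 22.3%, were lower in this sense, against 9.95% of all common LEF1 regions. Only 107, or 5.09%, were higher, against 9.73% of all. At retained regions 9.39% were lower and 17.0% higher. A single region of this kind cannot go below p = 0.1 in an exact permutation test of 3 libraries against 3.

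**Figure D2:**
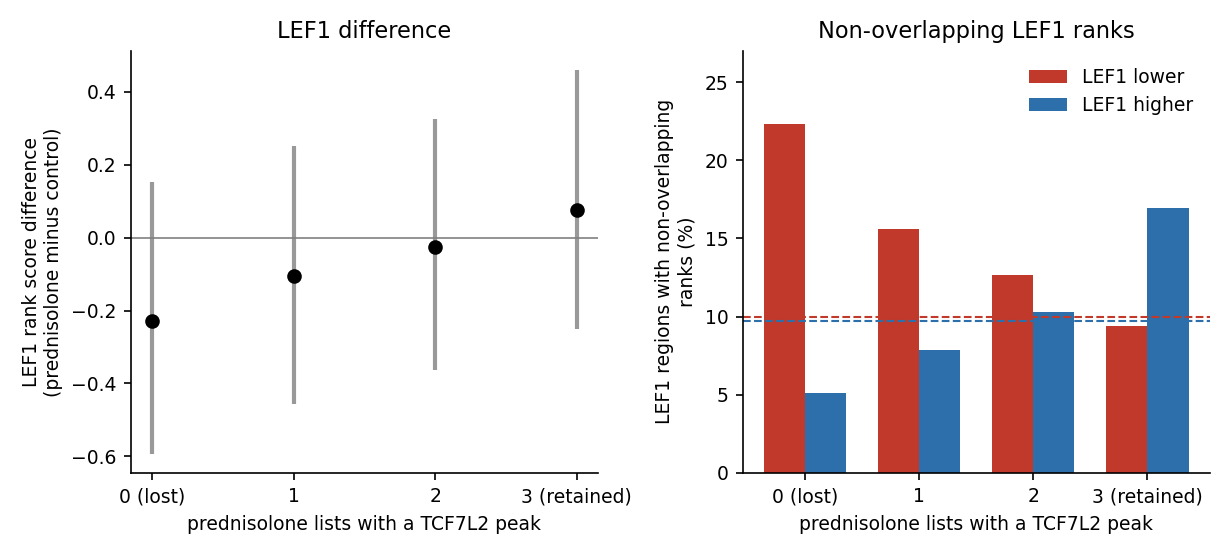
LEF1 at regions grouped by the number of prednisolone lists with a TCF7L2 peak (x axes), among regions with TCF7L2 in all 3 control lists and LEF1 in all 6. Left, the LEF1 rank score difference, with points for medians and bars for quartiles, moves from −0.228 at lost to 0.0754 at retained regions. Right, the percentage of LEF1 regions whose ranks in both treatments do not overlap, with dashed lines for all common LEF1 regions.

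Single LEF1 regions were then tested. With limma over all 65207 common regions and Benjamini-Hochberg adjustment at 0.05, 1 region was called lower (0.00153%) and 0 were called higher (0%), and none of them lay at a lost region. The smallest adjusted p at a lost region was 0.0861. At an unadjusted p under 0.05, limma gave 273 LEF1 regions lower at lost regions, or 13.0%, against 5.98% of all, and 55 higher, or 2.62%, against 6.99%. A limma fit that lets the prior spread follow the score, chosen after seeing the data, called 38 LEF1 regions lower at lost regions, or 1.81%, against 0.373% of all, and 3 higher, or 0.143%, against 0.784%.

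The libraries of each antibody form sets by the length of their shortest peak, a technical measure. Set A holds control 1 and prednisolone 2 and 3, and set B holds control 2 and 3 and prednisolone 1. At lost regions the median LEF1 score difference was −0.231 within set A and −0.193 within set B, against −0.0352 and 0.0220 over all common LEF1 regions. At retained regions it was 0.0721 and 0.112. The sign at lost and at retained regions was therefore the same in both sets, each of which has a single library of one treatment.

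LEF1 strength was matched next, by the mean percentile over all 6 libraries. Above a mean percentile of 90, 105 of 345 at lost regions were lower without overlap, or 30.4%, against 16.7% of all LEF1 regions of that strength. Between percentiles 75 and 90 the share was 25.6%, against 13.4%, and between 50 and 75 it was 21.8%, against 11.3%. Below 50 it was 15.3%, against 7.67%. The median score difference at lost regions lay between −0.260 and −0.193 in the 4 classes. The retained regions had positive medians in each, from 0.0194 above 90 to 0.154 below 50.

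The TCF7L2 peaks that defined the lost regions were mostly weak ones. These values chose the regions and are given as a description. In control libraries 1, 2 and 3 the median fold at lost regions was 2.48, 2.51 and 2.54, against 3.23, 3.26 and 3.43 at retained regions. The median rank was 71814, 60282 and 59248, against 10250, 11763 and 10671. A −log10 q-value of at least 2 was reached by 236, 212 and 295 lost regions in the 3 control lists. Only 37 lost regions reached it in all 3 lists, and 1600, or 74.5%, in none. Lost regions were also narrow: their median width was 763 bp, against 1596 bp for retained regions, although a merged region grows with the number of lists that have a peak in it.

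The share of regions lost was smaller where the control TCF7L2 peak was stronger. Among the 18836 regions with TCF7L2 in all 3 control lists and LEF1 in all 6, 11.4% were lost, against 19.4% of all 31226 regions with TCF7L2 in all 3 control lists. Where the weakest of the 3 control peaks still ranked among the first 5000 of its list, 12 of 1522 regions, or 0.788%, were lost. Where it ranked beyond 200000, 956 of 5182, or 18.4%, were. The lost share was also smaller where more LEF1 lists had a peak: it was 40.8% with none, 25.6% with 3 and 11.4% with all 6. The LEF1 difference ran the other way. At the 12 lost regions with the strongest TCF7L2 peaks its median was −0.604, and at those beyond rank 200000 it was −0.170, while retained regions of the same 2 classes had 0.0380 and 0.156.

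**Figure D3:**
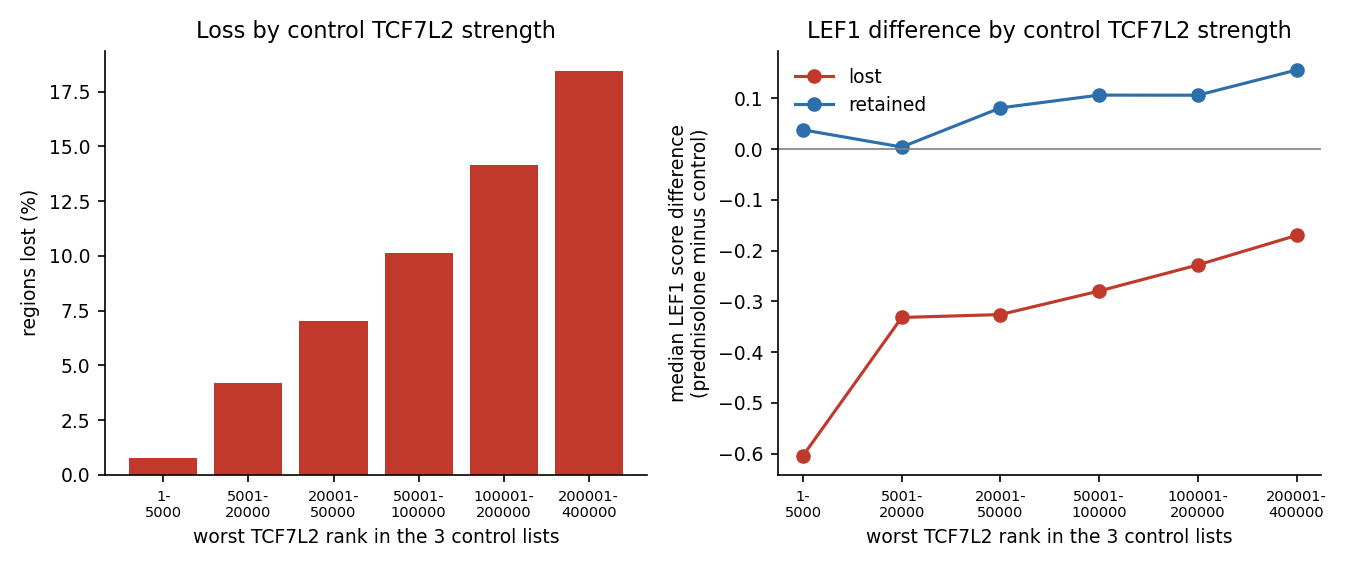
Regions with TCF7L2 in all 3 control lists and LEF1 in all 6, grouped by the worst of their 3 control TCF7L2 ranks (x axes). Left, the percentage lost after prednisolone goes from 0.788% to 18.4% as the control peaks weaken. Right, the median LEF1 score difference is negative at lost regions and positive at retained regions in every class; the first class holds only 12 lost regions.

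At 37 lost regions the control TCF7L2 peak reached a −log10 q-value of 2 in every control list, and the LEF1 difference was larger there. Their median score difference was −0.402, and 33 of their 37 LEF1 regions had a negative difference, against 51.7% of all common LEF1 regions. The ranks did not overlap and were lower in 19 of them, or 51.4%, and higher in 0. Over all common LEF1 regions 9.95% were lower in this sense and 9.73% higher. Among all common LEF1 regions above a mean percentile of 90 these shares were 16.7% and 13.7%, and the 37 were not matched for LEF1 strength. The 37 lost regions are few, and they were set apart after the data had been seen.

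Lost regions were ordered by the worst of their 3 control TCF7L2 ranks, and the 10 with the best value are described one by one. The first lay on chromosome 22 from 49306250 to 49309487. Its TCF7L2 peak ranked 375, 292 and 355 in the 3 control lists, with folds of 6.42, 10.97 and 11.7. No prednisolone TCF7L2 list had a peak there. Its LEF1 peak ranked 27, 46 and 90 in the control lists, with folds of 15.3, 12.8 and 12.4, among the strongest LEF1 peaks in these cells. After prednisolone the LEF1 folds were 4.87, 4.73 and 5.12, so that every treated library was below every control. The LEF1 peak thus persisted at a fold well under its control value. The score difference was −1.61 ± 0.297 (SE, limma adjusted p = 0.116), and the limma fit with the spread following the score gave an adjusted p of 0.000206.

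On chromosome 2 from 97628098 to 97628854 the pattern was similar, with TCF7L2 ranks of 1499, 1383 and 1512 in control cells. The LEF1 folds there were 15.99, 13.5 and 12.3 in control cells and 8.65, 9.53 and 8.06 after prednisolone, again without overlap. The score difference was −0.931 (limma adjusted p = 0.253, and 0.00927 with the spread following the score). A second region on this chromosome, from 97203914 to 97205119, had TCF7L2 ranks of 1183, 1114 and 1338. Its LEF1 folds of 7.07, 6.93 and 6.44 in control cells and 5.14, 7.73 and 7.15 after prednisolone overlapped. LEF1 there was thus not separable between treatments by fold, although TCF7L2 was lost.

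The next lost region by TCF7L2 rank (chromosome 9, 5437389 to 5439315) had LEF1 folds of 5.22, 3.05 and 4.81 in control cells and 2.74, 2.29 and 2.69 after prednisolone. It was followed by a region (chromosome 2, 103034466 to 103035828) with LEF1 folds of 9.69, 8.99 and 10.5 in control cells and 6.13, 5.44 and 8.53 after prednisolone. A further one (chromosome 17, 66082700 to 66084325) had LEF1 folds of 6.32, 6.86 and 6.29 in control cells and 4.70, 5.45 and 4.68 after prednisolone. In all 3 of these regions the treated libraries were below the controls without overlap. The same held on chromosome 3 from 290604 to 291651, with folds of 10.7, 9.31 and 9.67 in control cells and 7.71, 7.86 and 6.42 after prednisolone.

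At the seventh, ninth and last of the 10 strongest regions the LEF1 folds overlapped. On chromosome 3 from 101443140 to 101443731 they were 5.64, 5.50 and 4.15 in control cells and 4.91, 3.09 and 6.27 after prednisolone. On chromosome 3 from 31255273 to 31256067 they were 5.57, 5.56 and 4.87, and then 4.25, 4.89 and 6.42. The shortest of these regions, at 345 bp, lay on chromosome 16 from 10837584 to 10837928, with 3.86, 2.22 and 4.06, and then 2.93, 2.63 and 2.92. All 10 regions had a negative LEF1 score difference, from −1.61 to −0.0226, and in 7 of them the ranks did not overlap. One of these 7 was the region on chromosome 2 from 97203914 to 97205119, where the lowest control percentile was 98.303 and the highest prednisolone percentile 98.302, so that the ranks were barely apart. None passed the limma test at an adjusted p of 0.05 (0.116 to 0.985), and 2 did with the spread following the score.

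**Figure D4:**
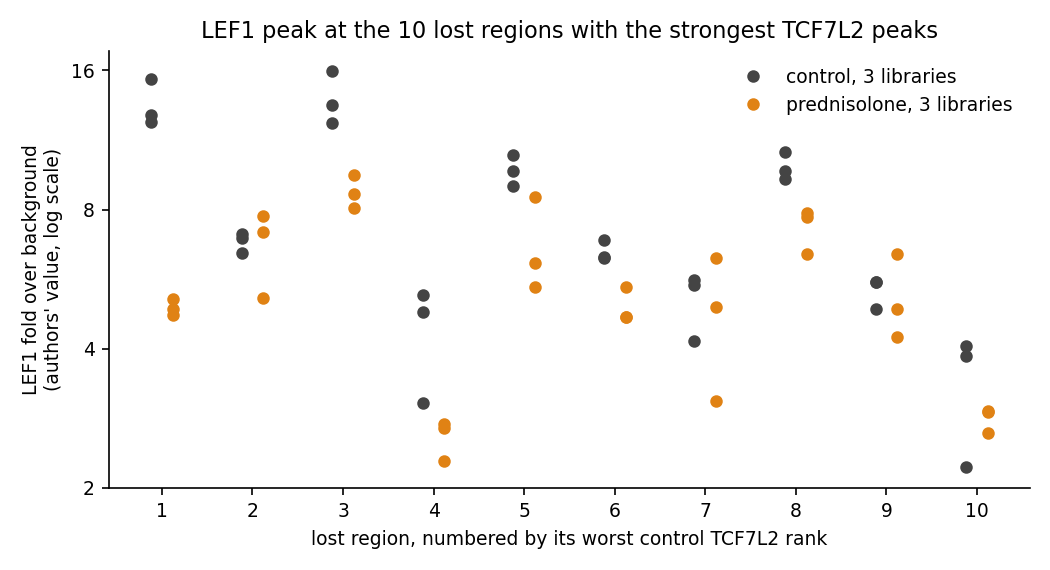
LEF1 fold over background, the authors' value (log scale, y axis), at the 10 lost regions with the best worst control TCF7L2 rank, numbered in that order (x axis). Each point is 1 library. The treated libraries lie below the controls without overlap at regions 1, 3, 4, 5, 6 and 8.

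Beyond the strongest regions, the largest LEF1 differences were found where TCF7L2 was weaker, and the regions in this paragraph were chosen after their values were seen. On chromosome 9 from 128408344 to 128409140 the control TCF7L2 peaks ranked 5174, 38585 and 50544. LEF1 had folds of 19.6, 12.2 and 14.6 in control cells and 2.08, 2.13 and 1.501 after prednisolone, so that every treated library was far below every control. Its rank percentile after prednisolone was 24.4, 30.7 and 2.08, and only library 3 was near the bottom of the ranking. The score difference was −3.17 (limma adjusted p = 0.0861, and 0.000975 with the spread following the score). The opposite also occurred. On chromosome 5 from 136477318 to 136477617 the control TCF7L2 peaks were faint, with ranks of 230803, 144465 and 310520. The LEF1 folds there were 1.82, 2.06 and 1.77 in control cells and 6.90, 3.15 and 3.27 after prednisolone, with a score difference of 1.92 (limma adjusted p = 0.114, and 0.0238 with the spread following the score). LEF1 thus ranked higher at a region whose lost TCF7L2 peaks were weak.

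The limit of the rule was a matter of faint peaks. The weakest region inside it lay on chromosome 15 from 81117159 to 81118035, with control TCF7L2 folds of 1.66, 1.83 and 2.42 and ranks of 389513, 305088 and 152152. The next weakest (chromosome 1, 229170426 to 229171091) had a fold of 1.66 in control list 1. The one after it (chromosome 20, 50519416 to 50519807) had 1.57 there. Just outside the rule stood regions with a single faint prednisolone peak. On chromosome 5 from 96527590 to 96528711 that peak had a fold of 1.64 and rank 317285 in prednisolone list 1, and on chromosome 22 from 24142465 to 24143175 it had 1.64 and rank 317294. On chromosome 10 from 98411757 to 98412972 it had 1.65 and rank 317180, beside control folds of 2.63, 5.58 and 3.98.

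How much was lost also depended on the single prednisolone library. Of the 18836 regions, 76.0% had a TCF7L2 peak in prednisolone library 1, 62.2% in library 2 and 57.2% in library 3, whose lists held 317316, 395786 and 144091 peaks. The library with the most peaks was thus not the one with the most of these regions. Prednisolone TCF7L2 library 1 is in set B, and libraries 2 and 3 are in set A. These sets, by shortest peak length, are unevenly spread over the treatments. Whether the TCF7L2 loss follows them was not tested. With all TCF7L2 lists at the length of the shortest, and the LEF1 lists likewise, 1070 regions met the rule, and the median LEF1 score difference at their 1055 LEF1 regions was −0.241. Without prednisolone library 1 the rule gave 4595 regions. Without control library 1, 2 or 3 it gave 4112, 3979 and 3700. Without prednisolone library 2 or 3 it gave 3070 and 2855, and without any single LEF1 library 2181 to 2324. Leaving out any list also removes a condition from the rule. The number rose most without prednisolone library 1, then without a control TCF7L2 library, and least without a single LEF1 library.

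Prednisolone TCF7L2 peaks also lay near some lost regions. How often lists of this length place a peak near other regions was not computed, so the counts of nearby peaks are a description only. A prednisolone TCF7L2 peak lay within 1 kb of 664 lost regions in library 1, of 506 in library 2 and of 358 in library 3. The other 1088 lost regions, or 50.6%, had none within 1 kb in any of these lists. At their 1060 LEF1 regions 24.9% were lower and 4.91% higher without overlap. At all lost regions these shares were 22.3% and 5.09%, and over all common LEF1 regions 9.95% and 9.73%. Of the 2103 LEF1 regions that held a lost region, 870, or 41.4%, also overlapped a TCF7L2 region with a peak in at least 1 prednisolone list, and 110, or 5.23%, also held a retained region. The median LEF1 score difference was −0.173 in the 870 and −0.261 in the other 1233. Lost regions were mostly single: 38 LEF1 regions held more than 1, at most 3, and neighbouring lost regions on a chromosome were a median of 535 kb apart.

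The position of TCF7L2 relative to LEF1 gave no such contrast. From the summit of the strongest control TCF7L2 peak, the nearest LEF1 summit lay at a median of 139, 146 and 164 bp in the control LEF1 libraries and 155, 143 and 130 bp in the prednisolone libraries. The ranges of both treatments overlapped. At retained regions the medians were 141, 159 and 174 bp, and then 157, 145 and 135 bp. The 3 control TCF7L2 summits of a lost region were spread over a median of 236 bp, against 276 bp at retained regions, and lay within 100 bp of each other in 17.5% and 20.8%. The LEF1 regions themselves had a median length of 1960 bp at lost and 2311 bp at retained TCF7L2 regions.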

How the data were processed

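Peaks were called by the authors with MACS2 on hg19, per the submitters' processing notes, separately for each sample, per the peak names in the deposited lists. The aligner, the versions, the control library and the filters are not given in the sources used here. For each peak the authors deposited a fold ratio over background and, on the −log10 scale, its p-value and q-value. The lowest −log10 p-value was 1.30. The 12 lists held 128863 to 395786 peaks; read depth is unknown, and the 3 replicates a group limit precision. The IgG sample was not analysed here.

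Merging, overlaps and ranks were computed in Python 3.11.15 with numpy 2.4.6 and pandas 2.3.3. Peaks were ranked within their own list, by p-value and, as an alternative, by fold. Folds were also set side by side between lists as the authors gave them, without adjustment for depth. Normal scores of LEF1 ranks within the common regions were compared between treatments with limma 3.58.1 in R 4.3.3 (Benjamini-Hochberg, 0.05), tested on simulated data. A region was given the common LEF1 region that it overlapped most. Named were the 10 lost regions with the best worst control rank, the 3 weakest, the 3 just outside, and up to 5 per direction called by limma, of which there were 0. Regions called only by the added limma fit were named after their values were seen. The regions, rules and lists were chosen with earlier results of these data known. Analyses of genes and motifs were not run.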

Additional observations from a re-analysis of the deposited data

How the results depend on the processing

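The number of lost regions, 2149, rested on faint peaks and changed when single libraries were left out. It was 37 when control TCF7L2 peaks needed a −log10 q-value of at least 2, 1070 with lists of equal length, and 1088 when no prednisolone TCF7L2 peak could lie within 1 kb. Leaving out any single library removes a condition from the rule. The number was then 2181 to 4595, the highest without TCF7L2 prednisolone replicate 1. The median LEF1 score difference, −0.228, stayed negative under every alternative run: −0.198 ranked by fold, −0.208 with a batch term, −0.193 within library set B, −0.402 for the 37 stronger regions, −0.245 for those with no prednisolone TCF7L2 peak within 1 kb, and −0.239 to −0.205 without single libraries. The log2 ratio of lost regions with a LEF1 peak among the 20000 strongest, prednisolone over control, was −0.30, with −0.62 for 5000 and −0.14 for 50000 strongest peaks and −0.33 to −0.27 without single libraries.

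Calls of single LEF1 regions were the result that moved most. Over all common regions, limma called 0 higher and 1 lower. Ranking by fold gave 8 and 3, a fit to the stronger 50% of regions 165 and 33, and the spread following the score 511 and 243. At lost regions, where 0 and 0 were called, ranking by fold gave 1 lower, the stronger 50% gave 2 higher and 5 lower, and the spread following the score gave 3 and 38. A batch term and the replicate block left 0 calls, and leaving out single libraries gave 0 to 0 in each direction. With the replicate block the smallest adjusted p at a lost region was 0.279 (limma). Same-numbered LEF1 libraries did not deviate together in rank (r of −0.0744, −0.0192 and −0.0445 across regions). These values cannot tell whether same-numbered libraries came from the same experiment. With 1 library fewer, non-overlap is met more often: the share higher became 7.94% to 11.1% at lost regions and 13.8% to 16.2% over all, and the share lower 27.5% to 29.9% and 14.4% to 16.6%. The fit with the spread following the score, the values within library sets and those for subsets of lost regions were added after seeing the data. Gene starts and motifs were not run. Depth limits the TCF7L2 absences: a missing peak in a list shows only that none passed the caller's limit.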

Other observations

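In the reverse set TCF7L2 had a peak in all 3 prednisolone and no control list, with LEF1 in all 6 lists. It held 201 regions. Their share of all regions with TCF7L2 in all 3 prednisolone lists was not computed, nor their number with lists of equal length. Prednisolone list 3 held 144091 peaks, and the control lists 329941 to 389886, so the sizes of the lost and reverse sets are not directly comparable. Of the 199 LEF1 regions of the reverse set, 60, or 30.2%, had higher LEF1 ranks without overlap after prednisolone, against 9.73% of all common LEF1 regions. Another 9, or 4.52%, had lower ones, against 9.95% of all. Their median LEF1 percentile, averaged over the control libraries, was 45.9, against 73.0 at lost regions. The median LEF1 score difference at these 199 LEF1 regions was 0.375. Retained regions had lower median TCF7L2 folds after prednisolone, by the authors' own values within each list. At retained regions the median TCF7L2 fold was 3.23, 3.26 and 3.43 in control libraries 1 to 3. It was 3.17, 2.82 and 2.73 in prednisolone libraries 1 to 3. Prednisolone library 1 was thus close to control library 1, and libraries 2 and 3, both of set A, were lower. The median TCF7L2 fold over all TCF7L2 regions was not computed. Whether the lower folds bear on the unequal sizes of the lost and reverse sets was not tested. Lost regions were found on every chromosome. Among the autosomes, their share of the regions with TCF7L2 in all 3 control lists and LEF1 in all 6 ran from 8.79% on chromosome 19 to 14.4% on chromosome 16. TCF7L2 regions lost in the same way but without a peak in any LEF1 list numbered 1703. Their median control TCF7L2 folds of 2.28, 2.29 and 2.32 were under the 2.48, 2.51 and 2.54 of the lost regions with LEF1.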
